A study of Mus musculus with 15 samples.

Results

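Most of the genes described here encode cytochromes P450, the heme enzymes whose symbols start with Cyp. Cyp2d37-ps and Cyp4f41-ps are pseudogenes by their symbols and are counted with the members. Each member has a probe set that the platform annotation ties to its symbol alone, and the symbol has the form Cyp, family number, subfamily letter and gene number. By that rule 85 genes were found among the 19938 genes with a probe set of their own. They fall into 14 families and 35 subfamilies, and 0 of them had more than 1 such probe set. All 85 of 85 symbols matched the RefSeq gene table.

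A P450 uses molecular oxygen and electrons passed on from a reductase to oxidise its substrate. Enzymes of families 1 to 3 mostly act on drugs and other foreign compounds, although subfamilies 2c and 2j also make epoxides of arachidonic acid. Family 4 enzymes hydroxylate fatty acids at their far end, and most of the remaining families act on sterols, steroid hormones, bile acids, vitamin D or retinoic acid. In mouse kidney, P450s are known mainly from the proximal tubule, and several of them are known to differ between males and females.

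Expression was measured on 15 Affymetrix mouse gene arrays in 4 groups. The MM cells are 4 single cells of the metanephric mesenchyme, the embryonic tissue that forms nephrons, numbered 14, 15, 16 and 19. They were dissected at embryonic day 11.5, Theiler stage 19, from mice carrying Tg(Crym-EGFP)GF82Gsat, with sex unknown, and were picked with glass needles under fluorescence. The JG cells are 5 single cells of the juxtaglomerular complex, which holds the renin cells beside the glomerulus, numbered 4 to 8, from adult male Ren1c-YFP mice. The dissection note for these cells speaks of a Ren1d GFP line, so the labels do not settle which reporter guided the picking. The diluted cortex is 3 libraries, A, B and C, of lysed cortex of adult male Ren1c-YFP mice, thinned and then amplified with the single cell protocol. The standard-labelled cortex is 3 libraries, A, B and C, of adult male Ren1c-YFP cortex labelled with a NuGEN kit. The labels record 32 rounds of amplification for the cells and the diluted cortex and 1 round for the standard-labelled cortex. All groups come from reporter mice, with the strain unspecified, samples were not pooled, and no label says which animal a cell or a library came from.

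The deposited values are log2 signals. Background was read from 1196 olfactory and vomeronasal receptor genes, most of which a kidney cell is not known to use. A member was called above background on an array where it exceeded the 99th percentile of these receptors on that array, and above background in a group where it did so on every array. That percentile lay between 7.13 and 7.56 on MM arrays and between 7.55 and 7.92 on JG arrays, against values between 6.18 and 6.30 for diluted and between 6.30 and 6.51 for standard-labelled libraries, so a cell needs a higher signal than cortex to pass it. All 12 measured markers of the proximal tubule were above background in both kinds of cortex and 0 of 12 on every MM or every JG array. Markers of renin and contractile cells, for which 8 of 10 listed genes were measured and Ren1 was not, had array means between 8.0 and 10.14 in JG cells, between 7.70 and 8.30 for diluted libraries and between 7.39 and 8.23 for standard-labelled ones. Of these 8, 2 were above background on every JG array, Crip1 and Mgp, and the median difference of JG cells minus diluted cortex over the list was 1.00, beside a shift of 1.02 of the receptors. Of the 8 markers of metanephric mesenchyme, 0 were above background on every MM array, and their mean was 6.82 to 7.82 over the MM arrays.

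On all 3 libraries of at least 1 labelling, 28 of 85 members were above background, against 51.9% of all genes. These 28 fall into 15 of the 35 subfamilies, and Cyp2j, Cyp4a and Cyp2d hold 15 of them. A member was called far above background where it exceeded the percentile by 2 log2 units or more on all 3 libraries of a labelling. By that rule 18 of 85 members were far above it in diluted or standard-labelled cortex, against 25.3% of all genes, and 11 of them in both. Both shares of the P450 genes lay below those of all genes, the share far above background only by a little, and neither gap was tested. The other 57 members did not reach background on all libraries of either labelling.

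**Figure D1:**
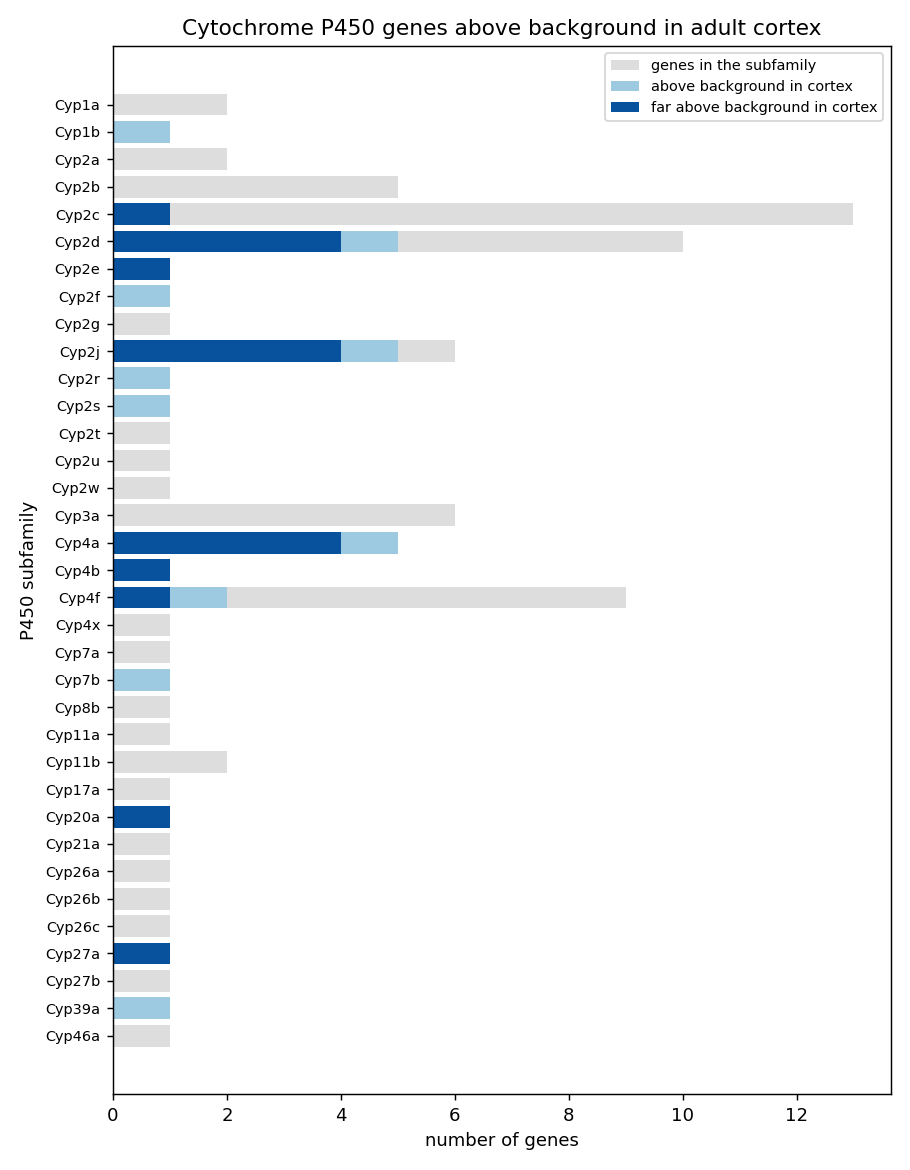
Number of members in each P450 subfamily, with those far above, above and below the receptor background in cortex. The subfamilies Cyp2j, Cyp4a and Cyp2d hold 12 of the 18 members far above background, while the 6 Cyp3a members and 12 of 13 Cyp2c members lie below it.

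Cyp2e1, which oxidises ethanol and other small molecules, was at 12.47, 11.79 and 12.20 in diluted cortex A, B and C, and at 12.44, 12.09 and 12.26 in standard-labelled cortex. Cyp4b1, a family 4 enzyme that acts on fatty acids and on several plant toxins, was at 12.52, 12.40 and 12.50 in diluted cortex and at 11.16, 10.66 and 10.92 in standard-labelled cortex. Cyp2j5, an arachidonate epoxygenase of the proximal tubule, was at 12.13, 12.02 and 12.09 in diluted cortex and at 12.70, 12.66 and 12.63 in standard-labelled cortex. All of these 6 cortex values per gene were above the highest of the 1196 receptors on the same array, which lay between 7.80 and 7.94 for diluted and between 7.44 and 8.35 for standard-labelled libraries. Cyp2d26 was also above the highest receptor on all 6 arrays, at 11.57, 11.86 and 11.82 in diluted cortex and 10.62, 11.03 and 10.78 in standard-labelled cortex.

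The sequences before the start of these 4 genes are shown beside those of 3 members that stayed below background in cortex, to set promoters of both kinds side by side. Each covers 140 bases before to 10 bases after the RefSeq start, read 5′ to 3′ on the gene's own strand of mouse build GRCm38.p6. Capitals mark TATAAA on either strand, the core of the TATA box, and CAAAGTCCA on either strand, a motif known from sites of the liver and kidney factor Hnf4a. On the opposite strand TATAAA reads as TTTATA. Each of the 3 members shown from below background carries CAAAGTCCA, which stood in 7 of 44 such members, so the 3 do not stand for that class. The windows are chr7:140763679-140763828 on the plus strand for Cyp2e1, chr4:115647712-115647861 on the minus strand for Cyp4b1, chr4:96664110-96664259 on the minus strand for Cyp2j5 and chr15:82794236-82794385 on the minus strand for Cyp2d26. Those below background are chr19:40187277-40187426 on the minus strand for Cyp2c70, chr9:121916296-121916445 on the minus strand for Cyp8b1 and chr5:145879845-145879994 on the minus strand for Cyp3a11.
Cyp2e1: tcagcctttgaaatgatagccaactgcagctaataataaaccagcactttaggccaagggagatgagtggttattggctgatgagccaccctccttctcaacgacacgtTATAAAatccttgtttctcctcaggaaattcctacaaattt
Cyp4b1: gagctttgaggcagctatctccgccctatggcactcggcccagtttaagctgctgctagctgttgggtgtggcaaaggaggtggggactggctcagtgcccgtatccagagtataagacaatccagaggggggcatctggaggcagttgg
Cyp2j5: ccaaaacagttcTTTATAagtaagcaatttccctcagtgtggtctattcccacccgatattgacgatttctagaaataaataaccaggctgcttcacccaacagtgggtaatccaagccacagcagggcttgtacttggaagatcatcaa
Cyp2d26: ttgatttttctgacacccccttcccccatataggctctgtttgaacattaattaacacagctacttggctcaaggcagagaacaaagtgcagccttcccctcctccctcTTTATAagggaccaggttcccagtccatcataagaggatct
Cyp2c70: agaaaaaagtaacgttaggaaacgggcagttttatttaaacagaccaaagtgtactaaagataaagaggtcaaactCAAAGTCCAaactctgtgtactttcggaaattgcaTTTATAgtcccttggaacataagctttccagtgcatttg
Cyp8b1: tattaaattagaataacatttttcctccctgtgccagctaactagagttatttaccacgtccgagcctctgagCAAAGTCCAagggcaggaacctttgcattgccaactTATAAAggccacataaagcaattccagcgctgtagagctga
Cyp3a11: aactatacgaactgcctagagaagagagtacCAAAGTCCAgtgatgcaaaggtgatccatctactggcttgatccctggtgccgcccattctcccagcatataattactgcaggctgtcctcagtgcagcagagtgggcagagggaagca

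TATAAA began 31 bases before the start in Cyp2e1 and in Cyp8b1. On the opposite strand it began 31 bases before the start in Cyp2d26, 29 in Cyp2c70 and 128 in Cyp2j5. The window of Cyp4b1 held neither motif. CAAAGTCCA began 64 bases before the start of Cyp2c70, 67 before that of Cyp8b1 and 109 before that of Cyp3a11. A RefSeq window of 250 bases before to 50 after the start was found for 62 of 85 members. In these windows TATAAA stood in 25 of 62 members, against 13.6% of 32851 mouse promoters of the same length, and in 5 of 18 members above background in cortex against 20 of 44 below it. CAAAGTCCA stood in 7 of 62 members, against 0.475% of all promoters. It stood in 0 of 18 members above background and in 7 of 44 below it, namely Cyp3a16, Cyp3a11, Cyp8b1, Cyp2c65, Cyp2c67, Cyp2c68 and Cyp2c70. Both motifs were chosen with the levels known, and a match is a description of letters only. The factor Hnf4a itself was at 8.82, 8.53 and 8.58 in diluted cortex and 8.95, 8.74 and 8.87 in standard-labelled cortex, above background on all 6 arrays. It was also above background in 3 of 4 MM cells and 2 of 5 JG cells.

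By position, 9 of the 18 members far above background lie on chromosome 4, which holds 14 members in all, and 4 lie on chromosome 15, which holds 12. On chromosome 19, where 16 members lie, 1 was far above background. Among the members, the Cyp2j genes follow each other on chromosome 4 in the RefSeq order Cyp2j13, Cyp2j12, Cyp2j11, Cyp2j6, Cyp2j9 and Cyp2j5. Genes without a probe set of their own were left out of this order. Of these 6 members 5 were above background and 1 was not. Cyp2j12 was at 4.64, 4.58 and 4.45 in diluted cortex and at 4.65, 5.27 and 4.72 in standard-labelled cortex. The members on both sides of it in this order, Cyp2j13 and Cyp2j11, were at 10.09 or more on every cortex array.

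The arachidonate epoxygenases, taken as subfamilies 2c and 2j, were thus split by subfamily. In Cyp2j, 5 of 6 members were above background in cortex and 4 were far above it. Cyp2j11 was at 10.24, 10.09 and 10.18 in diluted cortex and 10.98, 11.03 and 11.07 in standard-labelled cortex. Cyp2j6, which is known from many tissues, was at 8.28, 8.44 and 8.41 in diluted cortex and 8.67, 8.80 and 8.76 in standard-labelled cortex. In Cyp2c, 1 of 13 members was above background. That member, Cyp2c23, an epoxygenase known from kidney, was at 8.76, 8.77 and 8.85 in diluted cortex and 8.56, 8.91 and 8.51 in standard-labelled cortex. The other 12 Cyp2c members lay between 2.95 and 5.13 in diluted cortex and between 3.34 and 5.45 in standard-labelled cortex, below the receptor percentile of every library.

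Family 4 had 8 of 16 members above background. All 5 Cyp4a members, which make hydroxylated fatty acids including vasoactive products of arachidonic acid, were among them. Cyp4a14, known as a target of the fatty acid receptor Ppara, was at 10.05, 10.68 and 10.37 in diluted cortex and 10.96, 11.17 and 11.15 in standard-labelled cortex. Cyp4a10, another Ppara target, was at 9.63, 9.45 and 9.51 in diluted cortex and 10.05, 9.87 and 10.02 in standard-labelled cortex. Cyp4a31 was at 10.40, 10.24 and 10.57 in diluted cortex and 10.70, 10.29 and 10.50 in standard-labelled cortex. Cyp4a12a and Cyp4a12b, near-identical genes known from kidneys of male mice, lay on either side of the limit for far above. In the library where it was closest to the receptor percentile, in the better labelling, Cyp4a12b passed it by 2.16 log2 units and Cyp4a12a by 1.97. Members of Cyp4a are close copies, so signal may be shared between their probe sets and single levels are uncertain. Cyp4f differed, with 2 of 9 members above background, Cyp4f13 far above it and Cyp4f16 not.

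Among the Cyp2d genes, mouse relatives of the human debrisoquine hydroxylase, 5 of 10 were above background. Cyp2d9, a testosterone hydroxylase known from male mouse liver, was at 9.21, 8.90 and 8.91 in diluted cortex and 6.89, 6.56 and 7.06 in standard-labelled cortex. Cyp2d12 was at 8.81, 8.32 and 8.43 in diluted cortex and, close to the background of its arrays, at 6.33, 6.11 and 6.37 in standard-labelled cortex. It was the last member inside the limit for far above, by 2.03 log2 units over the percentile. Cyp2d22 was at 8.57, 8.99 and 8.75 in diluted cortex and 6.97, 7.11 and 7.32 in standard-labelled cortex. Neighbouring Cyp2d genes are close copies, and the same limit on their separate levels holds.

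Several groups known from liver were below background as a whole. The 6 Cyp3a members, the main drug-metabolising P450s of liver, lay between 3.16 and 4.59 in diluted cortex and between 3.33 and 4.67 in standard-labelled cortex. The 5 Cyp2b members lay between 3.82 and 6.06 in diluted cortex and between 3.81 and 6.06 in standard-labelled cortex. Cyp7a1, which starts bile acid synthesis in liver, lay between 4.03 and 4.14 in diluted cortex and between 3.84 and 4.02 in standard-labelled cortex. In family 1, Cyp1a1 and Cyp1a2, the known targets of the aryl hydrocarbon receptor, lay between 4.06 and 5.20 in diluted and between 3.89 and 4.64 in standard-labelled cortex. Cyp1b1, the remaining member of the family, was above background at 6.29, 6.69 and 6.55 in diluted cortex and 7.17, 7.72 and 7.42 in standard-labelled cortex.

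Of the 5 members that make steroid hormones in adrenal and gonad, 0 were above background in cortex. Their values lay between 4.39 and 5.59 in diluted cortex and between 4.24 and 5.81 in standard-labelled cortex, and Cyp11b2, the aldosterone synthase, lay between 5.32 and 5.81 over the 6 libraries. Vitamin D is handled by 3 members. Cyp27a1, a mitochondrial sterol hydroxylase that also acts on vitamin D, was far above background in diluted cortex at 9.53, 9.14 and 9.28, and stood at 7.68, 7.37 and 7.33 in standard-labelled cortex. Cyp2r1, the main vitamin D hydroxylase of liver, was at 7.19, 7.07 and 7.28 in diluted cortex and at 5.79, 6.53 and 6.51 in standard-labelled cortex. Cyp27b1, which makes the active hormone in the proximal tubule, did not pass on every library of either labelling, with 6.85, 6.01 and 6.61 in diluted cortex and 6.09, 5.62 and 5.65 in standard-labelled cortex. Of the 6 members listed for bile acids and cholesterol, 3 passed, namely Cyp27a1, Cyp7b1 and Cyp39a1. Cyp20a1, an orphan P450 without a settled substrate, was at 8.93, 8.66 and 8.92 in diluted cortex and 8.26, 8.62 and 8.33 in standard-labelled cortex.

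**Figure D2:**
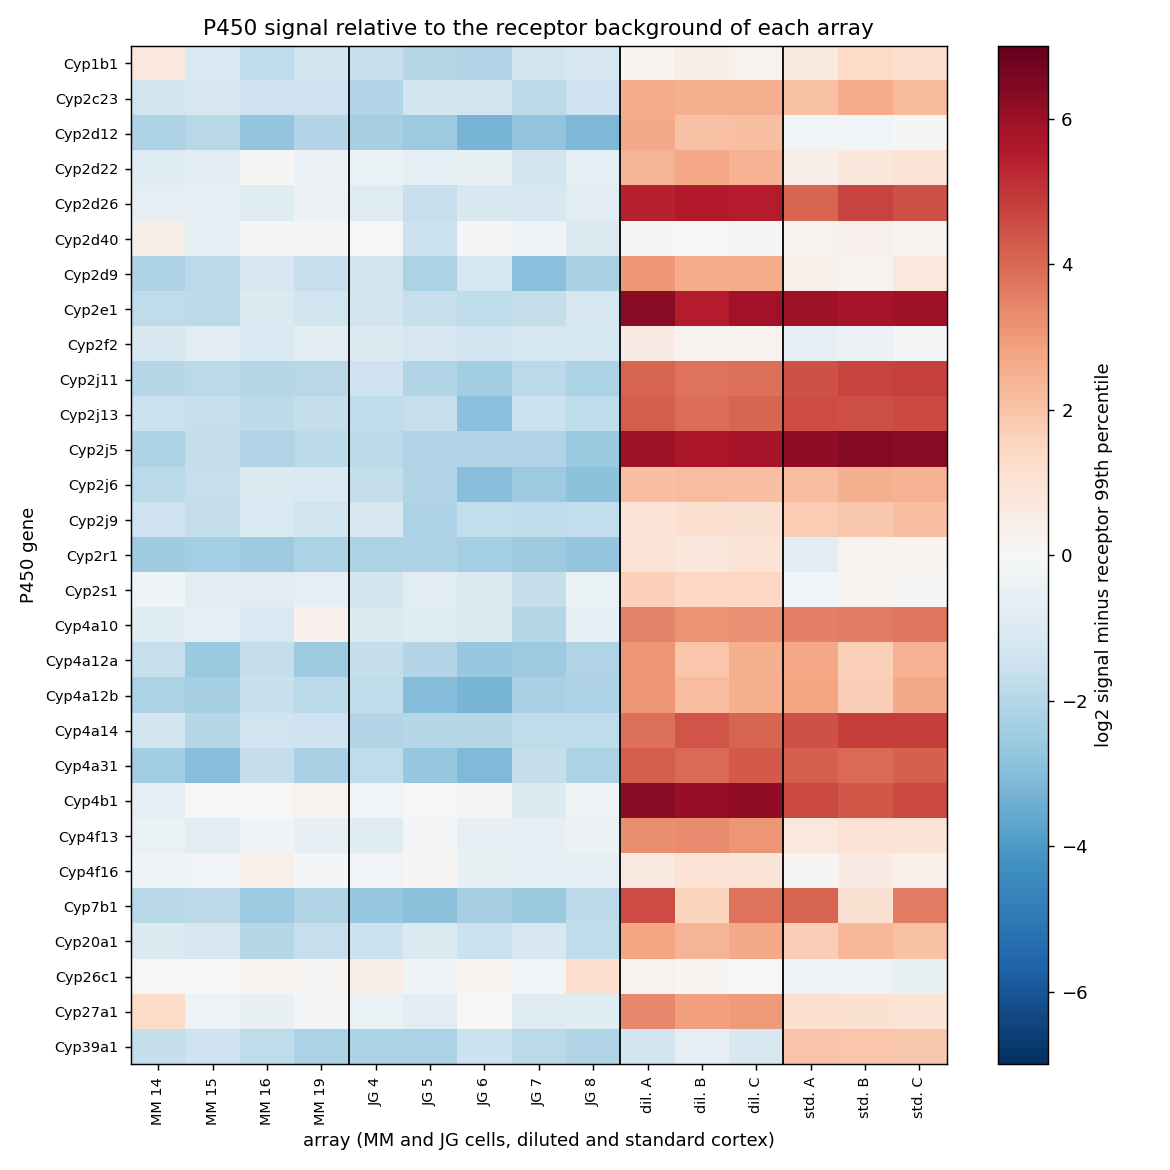
Distance of each member from the receptor 99th percentile of the same array, in log2 units, for the 28 members above background in cortex and Cyp26c1. The columns are the 4 MM cells, 5 JG cells, 3 diluted and 3 standard-labelled cortex libraries. The cortex columns are above the percentile for most of these genes, and Cyp27a1 in MM cell 14 and Cyp26c1 in JG cell 8 are the cell values farthest over it, by 1.32 and 1.15.

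In the single cells, P450 signals were almost all at background. Over the 9 cells, 21 of 765 pairs of a member and a cell were above background, or 2.75%, while over all genes 13.3% of such pairs were. The number of members above background was 4, 2, 3 and 3 in MM cells 14, 15, 16 and 19, and 1, 2, 4, 0 and 2 in JG cells 4 to 8. It was 29, 29 and 27 in diluted cortex A, B and C and 25, 26 and 27 in standard-labelled cortex. On every array of a group, 1 member was above background in MM cells (6.61% of all genes), 0 in JG cells (3.43%), 26 in diluted cortex (45.9%) and 24 in standard-labelled cortex (42.7%). In all, 11 members were above background in at least 1 cell and 74 in none, and 0 exceeded the highest receptor on any cell array. Of the 18 members far above background in cortex, 4 were above it in at least 1 cell.

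The member above background in all 4 MM cells was Cyp26c1, one of the enzymes that break down retinoic acid. It was at 7.19, 7.40, 7.82 and 7.19 in MM cells, from 0.00 to 0.26 log2 units over the percentile of the array. In JG cells 4 to 8 it was at 8.20, 7.67, 7.94, 7.51 and 8.70, above background in 3 of 5 cells. It was at 6.42, 6.45 and 6.29 in diluted cortex, above background on 2 of 3 libraries by at most 0.24 log2 units, and at 6.15, 5.96 and 5.80 in standard-labelled cortex, below background on all 3 libraries of the standard labelling. In JG cell 8 the highest receptor was at 9.22, above Cyp26c1. In raw signal every cell was thus above every cortex library for this gene, and the MM and JG cells overlapped. Against diluted cortex the mean was 1.62 log2 units higher in JG cells and 1.01 in MM cells. The receptors were themselves shifted up by 1.02 in JG cells and 0.81 in MM cells. Cyp26b1, of the same pathway, lay between 7.05 and 7.10 on MM arrays and between 7.41 and 7.84 on JG arrays. It lay between 5.95 and 5.99 in the diluted libraries and between 5.67 and 5.90 in the standard-labelled ones. It passed the percentile in 1 of the 9 cells, JG cell 6.

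Cyp27a1 was at 8.46 in MM cell 14, 1.32 log2 units over the percentile of that array, and at 7.05, 7.03 and 7.05 in the other MM cells. The highest receptor on the array of MM cell 14 was at 8.63. In JG cells 4 to 8 Cyp27a1 was at 7.28, 7.15, 7.78, 6.80 and 6.73. Cyp1b1 was also above background in MM cell 14, at 7.87, against 6.34, 5.80 and 5.84 in the other MM cells and 5.62 to 6.35 in JG cells. MM cell 14 was thus the highest of the 9 cells for both genes.

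Set against diluted cortex, which had the same amplification, the cells were lower in every P450 gene that stood far above background in cortex. Since no label names the animal of a cell, each group of cells counts as 1 sample, and these differences have no test. They are given on the log2 scale, and a gene was counted where it lay 1 log2 unit or more beyond the median shift of the receptors and no cell overlapped a library. By that rule 23 of 85 members were lower in JG cells than in diluted cortex and 0 were higher, while of all genes 29.3% were lower and 0.552% higher. In MM cells 23 of 85 were lower and 0 higher, against 24% lower and 0.667% higher of all genes. The share of members lower in cells, 27.1% in both comparisons, was close to that of all genes.

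All 18 members far above background in cortex were lower in JG cells and in MM cells than in diluted cortex, a direction to which their choice by cortex level contributes. Their differences had a median of -3.61 in JG cells, from -6.52 to -1.76, and of -3.49 in MM cells, from -6.74 to -1.92. Over all 85 members the median difference was 0.84 in JG cells and 0.60 in MM cells. Over all genes it was 0.56 in JG cells and 0.42 in MM cells, and the receptors were shifted by 1.02 in JG cells and 0.81 in MM cells. The positive median of the members is thus smaller than the shift of the background class. In a mixed lysate, fewer cells of a type and less RNA per cell cannot be told apart. The means of the proximal tubule markers were lower in the cells too, as were these 18 members. They lay between 6.27 and 6.55 on MM arrays and between 6.60 and 7.21 on JG arrays, against 11.46 to 11.56 in diluted cortex. For the other 67 members the median difference from diluted cortex was 0.91 in JG cells and 0.80 in MM cells. The part of the proximal tubule markers in the result was not tested. Some of the proximal tubule markers were above background in single JG cells. In JG cell 8 there were 3, Pck1 at 8.08, Slc5a2 at 7.71 and Slc34a1 at 7.56, against a receptor percentile of 7.55. In JG cell 4 Pck1 was at 7.76, against a percentile of 7.73. In JG cell 5 a pair of these markers was above background. Miox was at 12.63 there, against 6.28 to 7.40 in the other JG cells and 12.36 to 12.40 in diluted cortex, and Slc22a6 was at 8.74, against 6.87 to 7.20 in the other JG cells. Without JG cell 5 the counts were the same, 23 members lower and 0 higher, and the median difference over all members was 0.79.

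Since most of these genes were below background in the cells, a fold change is a lower bound. It sets the diluted cortex mean against the cells with each cell raised to at least its receptor percentile. Cyp2e1 was at 5.39, 5.55, 6.57 and 5.72 in MM cells 14, 15, 16 and 19, and at 6.44, 6.29, 5.97, 6.0 and 6.39 in JG cells 4 to 8. Its signal in MM cells was at least 28.7-fold lower, and in JG cells at least 21.5-fold lower, than the mean of 12.15 ± 0.35 in diluted cortex (SD, n = 3). Cyp2j5 was at 4.97, 5.71, 5.46 and 5.21 in MM cells and at 5.86, 5.81, 5.62, 5.58 and 4.94 in JG cells. For this gene MM cells were at least 27.4-fold and JG cells at least 20.5-fold lower than diluted cortex at 12.08 ± 0.06 (SD, n = 3). No cell came within 5 log2 units of a cortex library for either gene.

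Cyp4b1 was at 6.46, 7.41, 7.52 and 7.39 in MM cells and at 7.51, 7.89, 7.80, 6.76 and 7.21 in JG cells. It passed the percentile in MM cells 15 and 19 and in JG cell 6, by 0.02, 0.26 and 0.07 log2 units. With these cells at their own values, MM cells were at least 34.2-fold and JG cells at least 26.6-fold lower than diluted cortex at 12.47 ± 0.06 (SD, n = 3). Cyp2d26 lay between 6.45 and 6.85 on MM arrays and between 6.31 and 6.82 on JG arrays, at least 21.8-fold lower in MM cells and at least 16.3-fold lower in JG cells than in diluted cortex. For the remaining 14 members far above background in cortex, the bounds ran from 2.10 to 8.53-fold in MM cells and from 1.57 to 6.39-fold in JG cells. The end at 8.53 and 6.39 belongs to Cyp4a31 and the end at 2.10 and 1.57 to Cyp2j6.

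**Figure D3:**
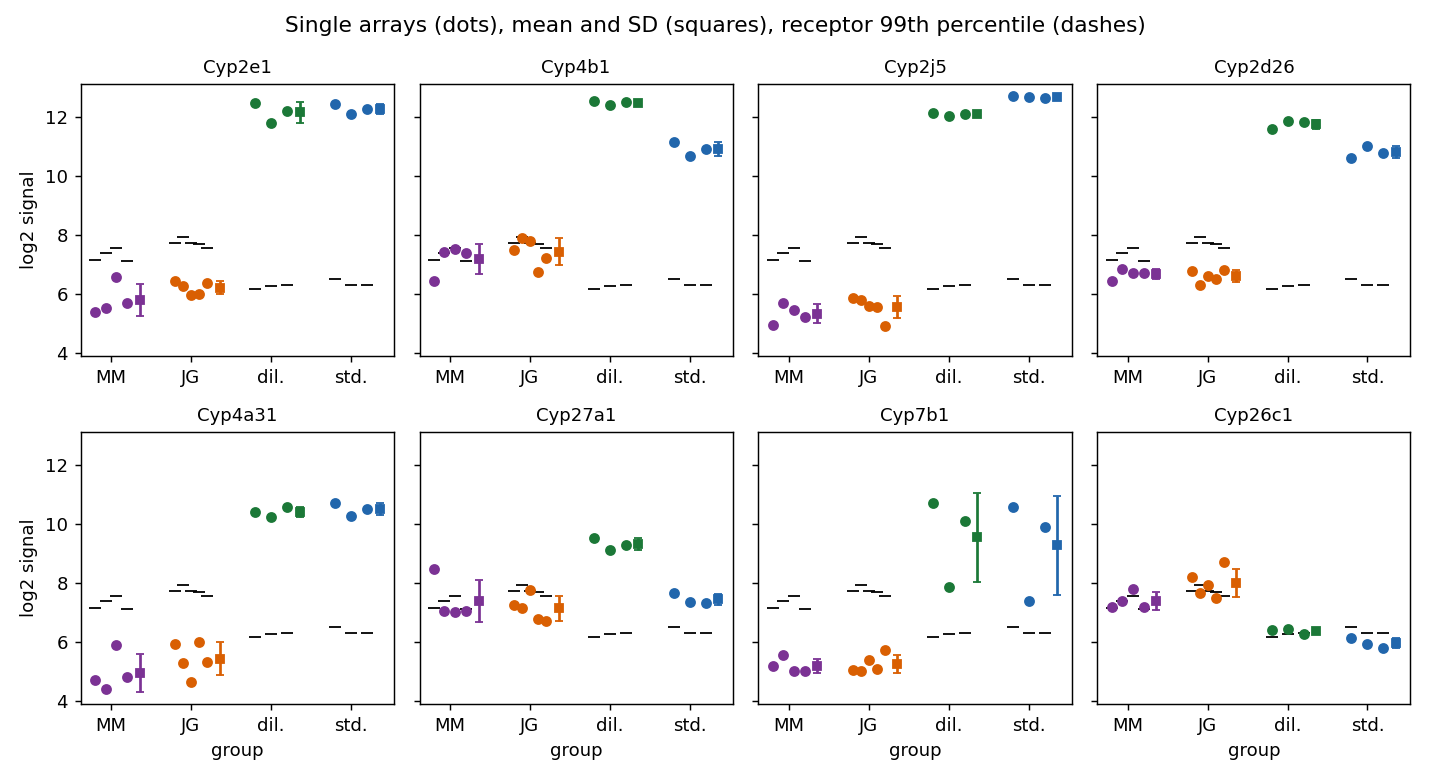
Log2 signal of selected members in every MM cell, JG cell, diluted cortex library and standard-labelled cortex library, with the receptor 99th percentile of each array. Cyp2e1, Cyp4b1 and Cyp2j5 lie between 10.66 and 12.70 on the cortex arrays and between 4.94 and 7.89 on the cell arrays.

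Against standard-labelled cortex, 21 members were lower in JG cells (26.9% of all genes) and 1 was higher (0.993%), Cyp26c1. In MM cells 20 were lower (23.4%) and 0 higher (1.9%). Between the cell groups, 0 members were lower in MM than in JG cells (0.186% of all genes) and 0 were higher (1.06%). The median difference of MM minus JG cells was -0.23 over the members, beside a receptor shift of -0.21. No P450 gene met the rule between embryonic and adult cells, at levels that lay almost wholly at background.

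The next comparison sets diluted against standard-labelled cortex, which are the same kind of tissue. They differ in protocol, in dilution and in rounds of amplification, 32 against 1, and may differ in animals. These parts cannot be told apart. The values were fitted with limma over 19531 probe sets, and a difference was called at a Benjamini-Hochberg adjusted p under 0.05. Nothing says that the libraries come from separate animals, so the p-values describe the scatter of these 6 libraries, part or all of which can be technical. A probe set entered the fit if its brighter group averaged at or above the overall median, and 37 of 85 members did so. Of these 17 were higher in diluted cortex, 10 were lower and 10 were not called, while of all probe sets tested 38% were higher and 36.7% lower. The median log2 fold change was 0.19 over the 37 members and -0.00 over all probe sets. Since a member could pass the filter through 1 group only, the counts describe the members that passed and not the whole family. Of the 27 called members 11 were not above background on at least 1 library of a labelling, so the sizes of their fold changes are uncertain.

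All 5 tested Cyp2j genes were lower in diluted cortex, while 4 of 7 tested Cyp2d genes were higher and 1 was lower. Centring each array on its median moved the median of all probe sets to 0.20, and Cyp2j6 was then at -0.19 and no longer called (limma adjusted p = 0.114). Cyp2j5 was at 12.08 ± 0.06 in diluted cortex and 12.67 ± 0.04 in standard-labelled cortex (SD, n = 3 each), a log2 fold change of -0.58 ± 0.08 (SE, limma adjusted p = 0.000283). Cyp2j9 had the largest fall of the subfamily, at 7.15, 7.40 and 7.36 in diluted cortex and 8.28, 8.22 and 8.39 in standard-labelled cortex, a log2 fold change of -0.99 ± 0.10 (SE, limma adjusted p = 4.26e-05). For Cyp2j11 the log2 fold change was -0.86, for Cyp2j13 -0.61 and for Cyp2j6 -0.36. In none of the 5 genes did a diluted library overlap a standard-labelled one.

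Of the Cyp2d genes, Cyp2d12 rose by 2.24 ± 0.15 on the log2 scale in diluted cortex (SE, limma adjusted p = 2.76e-06). Cyp2d9 rose by 2.17 ± 0.15 (SE, limma adjusted p = 4.16e-06). Cyp2d22 rose by 1.64 and Cyp2d26 by 0.94, while Cyp2d40 fell by 0.45. Cyp2d40 was below background on all 3 diluted libraries, so its signal there was at least 1.29-fold lower, with the libraries raised to their receptor percentile as for the cells, and Cyp2d12 was above background on 1 of 3 standard-labelled libraries. For each of the 4 genes that rose, all 3 diluted libraries were above all 3 standard-labelled ones.

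In family 4, Cyp4f13 was at 9.43, 9.57 and 9.39 in diluted cortex and 7.25, 7.34 and 7.27 in standard-labelled cortex, a log2 fold change of 2.17 ± 0.09 (SE, limma adjusted p = 2.54e-07). Cyp4b1 averaged 12.47 ± 0.06 in diluted cortex and 10.92 ± 0.25 in standard-labelled cortex (SD, n = 3 each), a log2 fold change of 1.56 ± 0.13 (SE, limma adjusted p = 1.34e-05). The Cyp4a genes went the other way where they were called. Cyp4a14 fell by 0.72 and Cyp4a10 by 0.45 on the log2 scale, and Cyp4a31, Cyp4a12a and Cyp4a12b did not pass the test, at -0.10, 0.13 and 0.10. With median-centred arrays Cyp4a31 was at 0.08.

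The largest log2 fold change among the 37 members was that of Cyp39a1, an oxysterol hydroxylase of the bile acid pathway. It was at 4.86, 5.59 and 5.15 in diluted cortex, below background on all 3 libraries, and at 8.50, 8.23 and 8.17 in standard-labelled cortex. The log2 fold change was -3.10 ± 0.19 (SE, limma adjusted p = 1.93e-06), and since the gene was below background in diluted cortex the signal there was at least 4.13-fold lower. Cyp1b1 fell by 0.93. Cyp27a1 rose by 1.86 ± 0.14 in diluted cortex (SE, limma adjusted p = 6.12e-06). Cyp2r1 rose by 0.91 and was above background on 2 of 3 standard-labelled libraries. Cyp27b1 was called at 0.70 but was above background on 2 of 3 diluted and 0 of 3 standard-labelled libraries, so the rise is given as at least 1.08-fold. Its call was lost without standard-labelled B or C or diluted A or C, at limma adjusted p-values from 0.0620 to 0.0733. Cyp2s1 rose by 1.38 and was above background on 2 of 3 standard-labelled libraries. Cyp46a1, a cholesterol hydroxylase known from brain, was called at 0.75 while above background on 1 of 3 diluted and 0 of 3 standard-labelled libraries, so it is given no fold. Cyp2e1 was not called, at a log2 fold change of -0.11 ± 0.18 (SE, limma adjusted p = 0.592), and was at 0.07 with median-centred arrays.

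**Figure D4:**
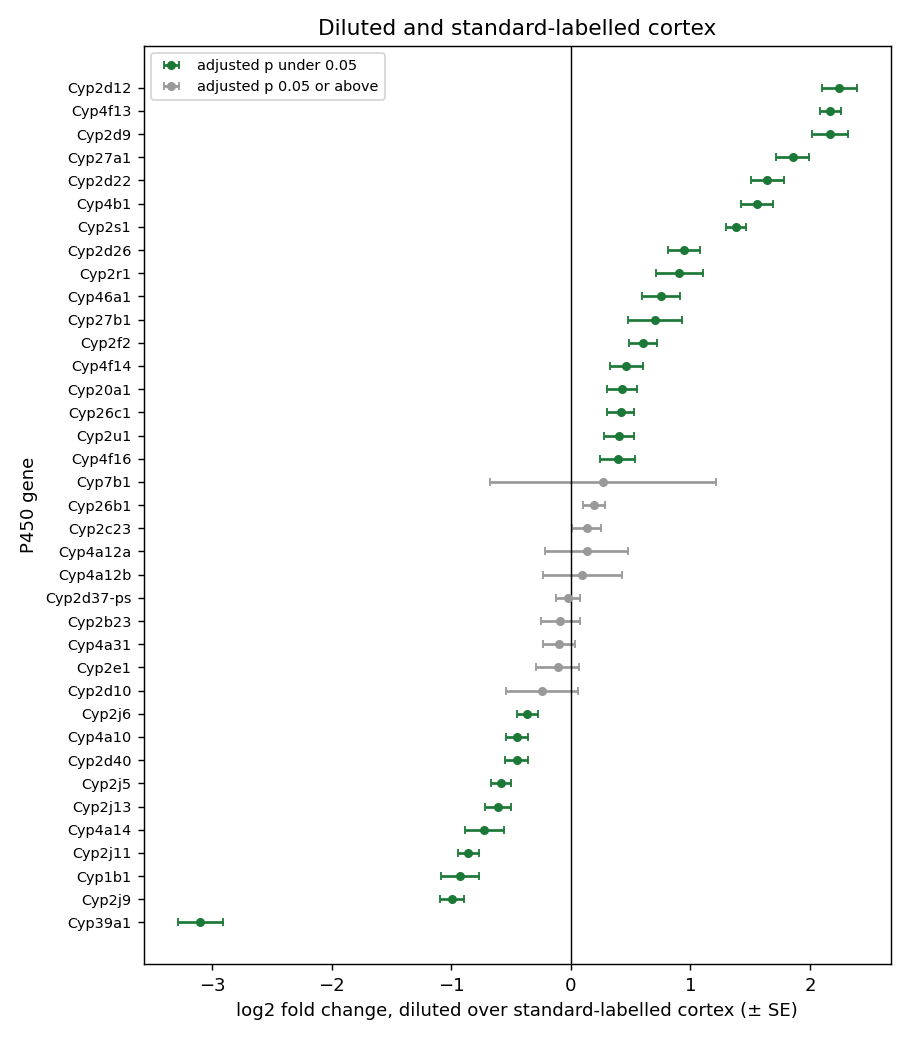
Log2 fold change of diluted over standard-labelled cortex for the 37 members tested, with bars of 1 SE from limma and colour by call. The Cyp2j genes lie left of 0, from -0.99 to -0.36, and the 4 called Cyp2d genes that rose lie between 0.94 and 2.24.

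The partners of the P450s were looked at through lists of genes, whose counts stand beside the 38% higher and 36.7% lower of all probe sets tested. Electron donors and enzymes of heme synthesis had 15 of 19 listed genes measured, and Por, the main reductase, was among the 4 without a probe set of their own. Of the 15, 10 were higher and 3 lower in diluted than in standard-labelled cortex, with a median log2 fold change of 1.01 over the list. Cyb5a, the cytochrome b5 that helps several P450s, was at 12.87 ± 0.12 in diluted cortex and 12.50 ± 0.03 in standard-labelled cortex (SD, n = 3 each). Alad, of heme synthesis, rose by 2.70 on the log2 scale, Urod and Ppox each rose by 1.91, and Hmox1, which breaks heme down, fell by 0.79. Hmox1 was above background on 0 of 3 diluted libraries, so the size of its fall is uncertain. In the cells, Cyb5a was at 10.05 in MM cell 19 and 12.42 in JG cell 8, and at 5.34 to 6.43 in the other 7, below background. Beside it, the members above background were Cyp4a10, Cyp4b1 and Cyp26c1 in MM cell 19 and Cyp26c1 and Cyp4f41-ps in JG cell 8. These were not the only cells with signal from the list. Of its 15 genes, 1 to 7 were above background in an MM cell and 0 to 3 in a JG cell. Alad was at 11.90 in MM cell 14, and Cyb5b at 11.56 in MM cell 19. Cyb5r3 was at 10.87 in MM cell 15 and 11.70 in JG cell 7.

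Among transcription factors that control P450 genes, 13 of 16 were measured and tested. Of these, 4 were higher and 4 lower in diluted cortex, with a median of -0.14. All are nuclear receptors except Ahr, the aryl hydrocarbon receptor, and Arnt, both of which were among the 4 lower. Rxrb rose by 3.06 and Nr1h3, the liver X receptor, by 2.65. Arnt, the partner of the aryl hydrocarbon receptor, fell by 1.74 and Ppara by 1.17. Rxrb was above background on 0 of 3 standard-labelled and Arnt on 0 of 3 diluted libraries, so the sizes of their changes are uncertain. Of eicosanoid genes beside the P450s, 11 of 16 were tested, 9 higher and 2 lower, with a median of 1.28. Ptges2 rose by 3.63, and Ephx1 and Ephx2, the hydrolases that open epoxides made by Cyp2c and Cyp2j enzymes, rose by 1.94 and 1.06. Ptges2 was above background on 1 of 3 standard-labelled libraries, so the size of its rise is uncertain. Ptges3 fell by 0.79. Of the vitamin D genes, 6 of 8 were tested, 1 higher and 3 lower, with a median of -0.62. Cubn fell by 3.53 and Lrp2 by 3.11, the receptors that take filtered vitamin D carriers up into the proximal tubule, and Kl fell by 0.99, while Fgfr1 rose by 1.08.

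For some members the cortex libraries also differed among themselves in the same order in both labellings. Other members did not keep the order, such as Cyp20a1 and Cyp2j9. Cyp7b1, an oxysterol hydroxylase known to be higher in male than in female mouse tissues, was at 10.72, 7.85 and 10.09 in diluted cortex A, B and C. It was at 10.57, 7.39 and 9.90 in standard-labelled cortex A, B and C. In both labellings the library lettered B was the lowest, with B minus the mean of A and C at -2.55 in diluted cortex and -2.85 in standard-labelled cortex. Diluted and standard-labelled cortex overlapped for Cyp7b1, and the log2 fold change between them was 0.27 ± 0.94 (SE, limma adjusted p = 0.806). Without standard-labelled library B it was -0.68 and without diluted library A -0.32, which leaves the letters unbalanced between the labellings. Within a letter, diluted minus standard-labelled cortex was 0.16 for A, 0.46 for B and 0.18 for C. The labels do not say whether libraries of the same letter share an animal, and with 1 library per letter and labelling there is no test.

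Cyp4a12a was at 9.28, 8.25 and 8.78 in diluted cortex A, B and C and at 9.21, 7.96 and 8.75 in standard-labelled cortex. Cyp4a12b was at 9.28, 8.44 and 8.84 in diluted cortex and at 9.26, 8.03 and 8.97 in standard-labelled cortex. Cyp2e1, with the values given above, was lowest in B in both labellings too. Cyp4a14 ran the other way, with B highest at 10.68 in diluted and 11.17 in standard-labelled cortex, and Cyp2j5 differed by 0.11 and 0.07 log2 units over its 3 libraries.

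Of the 22 members above background in both labellings, B was lowest in both for 9, against 15.3% of 7333 genes above background in both, and highest in both for 6, against 20.1%. A range of 1 log2 unit or more over the letters in both labellings was found for 2 members, Cyp7b1 and Cyp4a12a, and for 0.218% of all genes, 16 in number. Among the 1124 genes lowest in B in both labellings, ordered by the smaller of the deviations of B from the mean of A and C, Cyp7b1 had rank 1 and Cyp4a12a rank 8. Beside this, proximal tubule markers averaged 11.56, 11.46 and 11.53 over diluted cortex A, B and C and 10.91, 10.86 and 10.91 over standard-labelled cortex. Renin and contractile markers averaged 7.70, 8.30 and 8.03 in diluted cortex and 7.39, 8.23 and 8.0 in standard-labelled cortex, highest in B both times. Endothelial markers averaged 7.72, 7.99 and 7.89 in diluted cortex and 7.80, 8.28 and 8.17 in standard-labelled cortex. Xist was between 4.43 and 4.70 on the 6 arrays, below background, and the Y-linked Eif2s3y was between 8.17 and 8.99, above it. The part of the marker differences in the low Cyp7b1 and Cyp4a12a of library B was not tested.

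**Figure D5:**
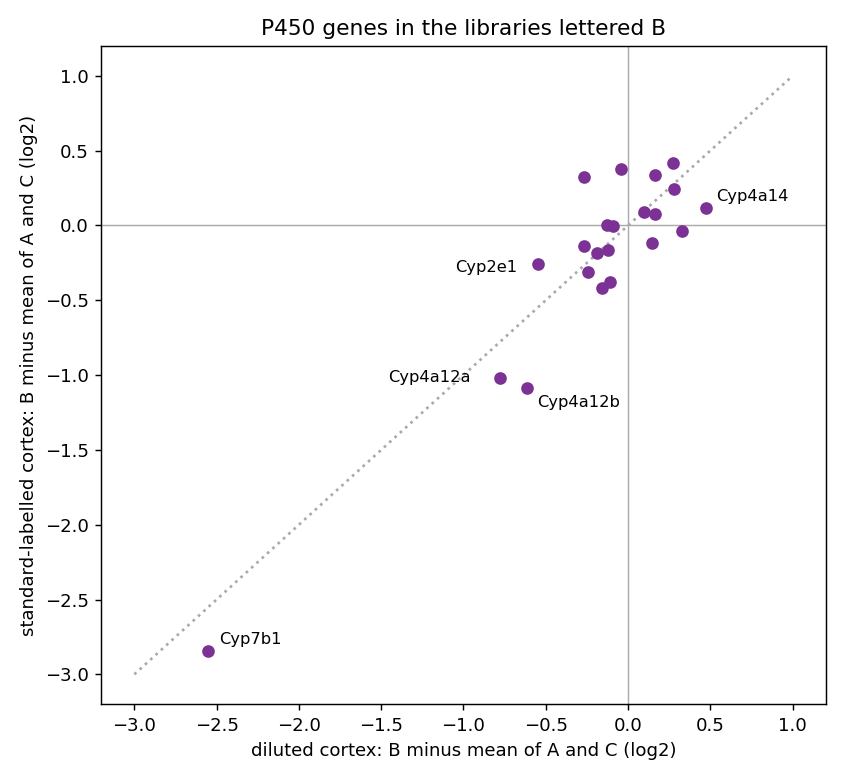
Deviation of cortex library B from the mean of A and C, in log2 units, in diluted cortex (horizontal) and in standard-labelled cortex (vertical), for the members above background in both. Cyp7b1 lies at -2.55 and -2.85, apart from the other members.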

How the data were processed

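The values analysed are log2 probe set signals as the authors deposited them, 1 per probe set and array, from 2.22 to 13.98 over 35557 probe sets. They were made with Affymetrix Expression Console, per the submitters' processing notes. The version, summary method and normalization were not given in the sources used here. Arrays have no count depth, and their number, 3 to 5 a group, limits the precision. Gene names come from the annotation of the platform, where 21789 carry 1 symbol, 1621 carry several and 12147 are unlisted. A gene was represented by its brightest probe set over the 15 arrays. Diluted and standard-labelled cortex were compared with limma 3.58.1 in R 4.3.3, adjusted over 19531 probe sets, and the fit was tested on simulated data. Cells have no named animal and were given no test. The remaining steps used Python 3.11.15 with pandas 2.3.3 and numpy 2.4.6. Promoter sequences are from RefSeq, GRCm38.p6. Genes named are the members far above background in cortex, those 1 log2 unit or more above it on a cell array, the 10 largest rises and 10 largest falls between labellings, the member of each role with the highest cortex mean, and up to 4 genes of each list. Other genes were named after their values were seen. Members, lists and motifs were chosen with earlier results of these data known. Alternatives were other background limits, other centring, other filters, a replicate block and leaving out libraries or cells.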

Additional observations from a re-analysis of the deposited data

Results flagged for a closer look

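For the 28 members named by rule, each looked at in MM and in JG cells, Dixon's test flagged 1 cell as apart from the others in 7 of 56 groups. These groups share arrays, so the count is not set against a chance rate. The cells are not replicates of a condition, so these values describe cells only. Cyp27a1 was at 8.46 in MM cell 14, against 7.03 to 7.05 in the other MM cells. Cyp4b1 was lowest in the same cell, at 6.46, against 7.39 to 7.52. Cyp4f13 was at 7.30 in MM cell 16, against 6.54 to 6.66, and at 7.79 in JG cell 5, against 6.89 to 7.14. Cyp2j9 was at 6.47 in MM cell 16, against 5.70 to 5.74, and at 6.61 in JG cell 4, against 5.78 to 6.01. Cyp4a10 was lowest in JG cell 7, at 5.69, against 6.71 to 6.99. Of these, the value of Cyp27a1 in MM cell 14 was above the receptor percentile of its array and the other 6 were below it, where signals have no reliable order. Both high values of MM cell 16 stood on an array whose receptor median was 5.26, against 4.86 to 4.97 on the other MM arrays.

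P450 probe sets that carry several symbols were outside the rule, and 2 of them had signal in cortex. A probe set annotated to 3 Cyp4a symbols was at 5.87 ± 0.32 in MM cells (SD, n = 4) and 6.06 ± 0.34 in JG cells (SD, n = 5), below background, and at 11.09 ± 0.12 in diluted cortex and 11.10 ± 0.10 in standard-labelled cortex (SD, n = 3 each). A probe set annotated to 2 Cyp2a symbols was at 6.02 ± 0.44 in MM cells and 6.58 ± 0.16 in JG cells. It was at 10.17 ± 0.40 in diluted cortex and 8.81 ± 0.40 in standard-labelled cortex, while both Cyp2a genes with a probe set of their own were below background there.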

How the results depend on the processing

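The deviations of libraries of the same letter from their group means correlated at 0.16 for A, 0.15 for B and 0.03 for C over 19531 probe sets. Between different letters the correlations ran from -0.18, for diluted A with standard-labelled B, to 0.05, for diluted C with standard-labelled B. Whether libraries of the same letter form pairs was not tested, and the main fit treats them as unpaired. With a replicate block by letter, 17 members were higher and 10 lower in diluted cortex, the same counts as without it. Leaving out 1 library at a time gave 14 to 17 higher members and 10 lower ones each time, and leaving out both B libraries 15 and 11. Against the 95th percentile of the receptors, 6 members were above background in every MM cell and 3 in every JG cell. Against the highest receptor, 0 were so in MM cells and 14 in standard-labelled cortex. With receptor-centred arrays, which removes the shift of the background, the median difference of the members turned to -0.21 for JG cells minus diluted cortex and -0.24 for MM cells minus diluted cortex, and was -0.016 for MM minus JG cells. Over members above background in either group it was -3.17 for JG cells minus diluted cortex, -2.97 for MM cells minus diluted cortex and -0.61 for MM minus JG cells, where the members kept passed almost wholly through diluted cortex, which fixes the sign, and the last value is Cyp26c1 alone. With standard-labelled in place of diluted cortex, 1 member was higher in JG cells, Cyp26c1. Without JG cells 4 and 5, left out after seeing the data as the JG cells with the lowest share of genes above background, 1 member was higher in MM than in JG cells, Cyp2j6. Among log2 fold changes that were not called, the sign turned for Cyp7b1 to -0.68 without standard-labelled B and -0.32 without diluted A, and was highest, at 1.12, without diluted B. It turned for Cyp4a12b to -0.27 without standard-labelled B, -0.12 without diluted A and -0.060 without both B libraries, which were left out together after seeing the data, and was highest, at 0.35, without standard-labelled A. It turned for Cyp4a31 to 0.080 with median-centred arrays and 0.0058 without standard-labelled A, with a lowest value of -0.20 without standard-labelled B. It turned for Cyp2e1 to 0.065 with median-centred arrays and 0.072 without diluted B. Calls were lost under 1 or more of these settings for Cyp4f16 (6 settings, adjusted p up to 0.125), Cyp27b1 (4), Cyp20a1 (3), Cyp2u1 (2), Cyp26c1 (1) and Cyp2j6 (1), and gained for Cyp26b1 (2), Cyp2c23 (1) and Cyp2b23 (1). The cause of these changes was not tested. The probe set choice could change nothing, since 0 members have several. Signals near the receptor percentile, which covers most cell values, have no reliable order.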

Other observations

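Genes outside the P450 family also set library B apart in both labellings, and those given here were chosen after their values were seen. Slco1a1, an organic anion transporter of the proximal tubule, was at 8.60, 6.39 and 8.07 in diluted cortex A, B and C and at 10.46, 8.04 and 10.11 in standard-labelled cortex. Among the 1124 genes lowest in B in both labellings it had rank 2, after Cyp7b1, by the smaller deviation of B from the mean of A and C. Upp2, a uridine phosphorylase, was at 8.02, 6.64 and 7.53 in diluted cortex and 9.57, 8.02 and 9.16 in standard-labelled cortex. Pck1, an enzyme of gluconeogenesis, was at 12.77, 11.83 and 12.37 in diluted cortex and 10.15, 9.06 and 9.72 in standard-labelled cortex.

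Higher in B were the contractile genes Acta2 and Myl9. Acta2 was at 8.13, 9.89 and 9.28 in diluted cortex and 6.80, 8.91 and 8.40 in standard-labelled cortex. Nfil3, a transcription repressor of the circadian system, was at 6.99, 8.72 and 8.31 in diluted cortex and 7.12, 8.76 and 8.36 in standard-labelled cortex. In these genes B lay beyond A and C in both labellings and C lay between B and A.

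Cyp51, which makes sterols and has a symbol outside the rule, was at 6.81 ± 1.82 in MM cells (SD, n = 4), with 1 cell at 9.52 above background and the lowest at 5.65. It was at 5.85 ± 0.45 in JG cells (SD, n = 5), 9.97 ± 0.02 in diluted cortex and 10.18 ± 0.09 in standard-labelled cortex (SD, n = 3 each).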
